A study of Mus musculus with 2 samples.

Results

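The genes described here are the 10 that encode the mouse clathrin chains (Cltc, Clta, Cltb), 4 subunits of the adaptor complex AP2 (Ap2a1, Ap2b1, Ap2m1, Ap2s1) and the classical dynamins (Dnm1, Dnm2, Dnm3). The rule takes them by gene symbol, matched to Ensembl gene identifiers, and uses no measured value, and all 10 are among the 43346 genes in the deposited tables, as are their 85 listed transcripts. Clathrin-mediated endocytosis is the main route by which cells take in receptors, and by which nerve terminals recover synaptic vesicle membrane after release. AP2 binds the inner face of the plasma membrane, gathers cargo and recruits clathrin, whose heavy and light chains assemble into a coat around the budding membrane. Dynamin, a large GTPase, then winds around the neck of the bud and cuts the vesicle free.

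RNA came from the forebrain of mouse pups of strain B6NCrl on postnatal day 0, with sex not recorded in the labels. There were 2 libraries in 1 group, from pup 1 (replicate 1) and pup 3 (replicate 2), each made from 13 pg of extracted RNA longer than 200 nt, an amount the labels equate to 1 cell, with spike-in RNA and by a Smart-seq protocol. Though catalogued as a single-cell assay, each library sampled RNA of forebrain tissue, and the labels give both pups the same donor identifier. No treatment or genotype was compared, so there is no contrast to test; ratios are those of pup 1 over pup 3, with no replicate check, and their spread may be biological or technical.

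Pup 1 had 41082811 expected counts and pup 3 had 29881397. At 1 TPM or more (TPM is a share of the library's transcripts, corrected for length, and this was the mark for a gene that was found), pup 1 had 9048 nuclear protein-coding genes and pup 3 had 6210. Of total TPM, 4.46% in pup 1 and 7.30% in pup 3 was spike-in RNA, and 5.02% and 6.003% was mitochondrial. Of 6 neuron markers, 5 were found in both pups, and the 6 summed to 10835 TPM in pup 1 and 5362 TPM in pup 3. Tubb3 led that sum, with 6275 TPM in pup 1 and 1872 TPM in pup 3. Gap43, Snap25 and Rbfox3 were also higher in pup 1, Stmn2 was nearly level (1786 and 1738 TPM), and Syt1 was higher in pup 3 (85.5 and 116.3 TPM). All 5 radial glia and astrocyte markers were found in both, with 3437 and 3921 TPM. Oligodendrocyte lineage markers (2 of 4 found in both) summed to 92.6 TPM in pup 1 and 29.4 TPM in pup 3, and microglia markers (1 of 4) to 248 and 64.4 TPM. Endothelial (2 of 3) markers summed to 55.7 and 136.7 TPM, choroid plexus (1 of 3) to 1821 and 1898 TPM, and erythroid (5 of 5) to 1750 and 3276 TPM. The markers Rbfox3, Olig1, C1qa, Csf1r, Tyrobp, Folr1, Foxj1 and Pecam1 had no read in pup 3. Olig2, of the same list as Olig1, went the other way, with 2 counts in pup 1 and 650 in pup 3. The part of cell makeup and depth in the values below was not tested, and in such bulk RNA fewer cells of a type and less RNA per cell cannot be told apart.

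The 10 genes together held 2456 TPM in pup 1 and 2156 TPM in pup 3, which is 0.246% and 0.216% of all TPM, with a mean of 2306 ± 212 TPM (SD, n = 2 pups). Each pup had 9 of the 10 genes at 1 TPM or more, and 8 were found in both pups. Of all 21461 nuclear protein-coding genes, 24.7% were found in both, and of the 9953 found in either pup, 53.3%. The exceptions were Ap2a1, below 1 TPM in pup 1, and Dnm2, below 1 TPM in pup 3.

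Ordered by mean level, the genes fell into 3 tiers whose ranges over the pups did not overlap. Ap2m1 stood alone at 1141 ± 434 TPM (SD, n = 2, as for each mean of a gene). Then came Ap2s1, Clta, Cltb, Ap2b1 and Cltc, between 389 and 102 TPM, each overlapping the next in its range. Dnm3, Dnm1, Dnm2 and Ap2a1 followed between 36.7 and 4.89 TPM, again with overlapping neighbours. Ap2m1 was first in both pups, while Ap2s1 was next in pup 1 and Clta was next in pup 3.

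**Figure D1:**
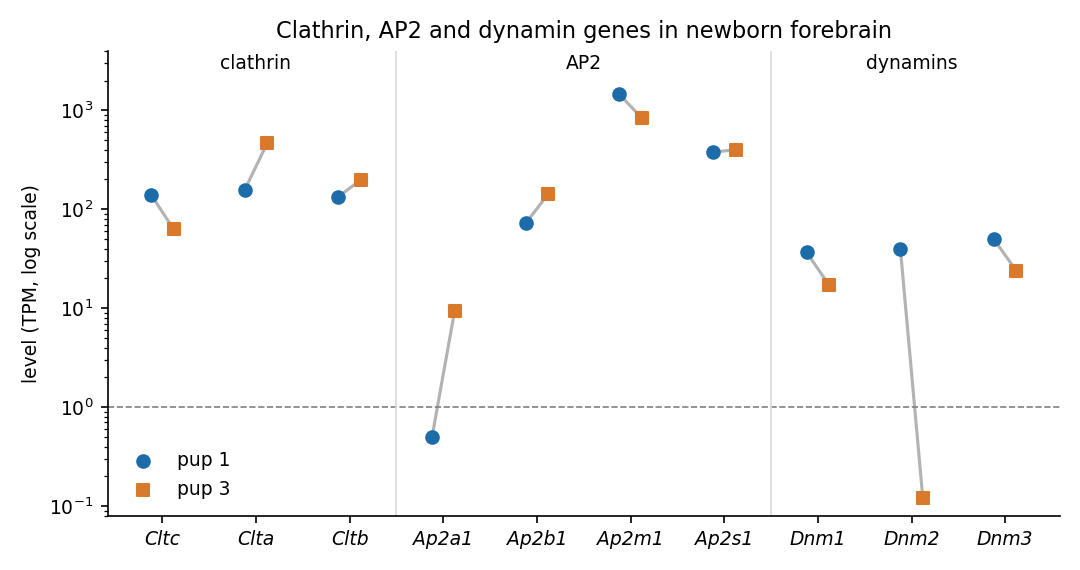
Deposited level in TPM (log scale) of each clathrin, AP2 and dynamin gene in pup 1 (blue circles) and pup 3 (orange squares), 1 library per pup; the dashed line marks 1 TPM. Ap2m1 is highest in both pups at 1449 and 834 TPM, Ap2s1 is nearly level at 378 and 399.7 TPM, and Dnm2 drops below the line in pup 3 and Ap2a1 in pup 1.

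Clathrin heavy chain comes from Cltc (ENSMUSG00000047126, chr11:86694351-86757565, minus strand, GRCm38/mm10), which encodes the legs of the 3-legged clathrin unit. It had 140.1 TPM in pup 1 and 63.0 TPM in pup 3, from 21588 and 7282 expected counts, a mean of 102 ± 54.5 TPM. Its log2 ratio on TPM + 1, the scale of every log2 ratio here, was 1.14, so pup 1 was higher and past 2-fold. The light chains, which bind the legs and regulate assembly, ran the other way. Clta (ENSMUSG00000028478, chr4:44004452-44032846, plus strand) had 157 TPM in pup 1 and 467 TPM in pup 3, from 4182 and 10760 expected counts, a mean of 312 ± 219 TPM and a log2 ratio of -1.57. Cltb (ENSMUSG00000047547, chr13:54592401-54611344, minus strand) had 133 TPM in pup 1 and 199 TPM in pup 3, from 4579 and 4642 expected counts. Its mean was 166 ± 46.6 TPM and its log2 ratio was -0.58, within 2-fold.

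Both light chain genes were thus lower in pup 1 while the heavy chain gene was higher there. The light chain genes summed to 2.07 times the heavy chain gene in pup 1 and to 10.6 times in pup 3. Clta made up 54.1% of light chain TPM in pup 1 and 70.1% in pup 3, a mean of 62.1 ± 11.3%, and so led Cltb in both. In pup 3, 33.3% of the TPM of Cltc (20.98 TPM) lay on a 2223-base transcript annotated as a retained intron, of which 399 bases are shared with exons of complete coding transcripts. That transcript had 0.04 TPM in pup 1. Over coding transcripts at 80% or more of the longest coding length, called complete here, Cltc had 124.8 TPM in pup 1 and 42.01 TPM in pup 3, a log2 ratio of 1.55. A shorter coding transcript of 898 bases held a further 15.13 TPM in pup 1 and none in pup 3.

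The light chain genes carry alternative exons known for their use in neurons, which insert residues in the carboxyl-terminal part of the protein. The exons are shown because the pups differed in their use. The sequences were read from GENCODE M21 transcripts on GRCm38/mm10, 5′ to 3′ on the transcript strand, with the alternative exon in capitals and 12 bases of each neighbouring exon in lower case.
Clta 54-base exon, chr4:44030215-44030268, plus strand: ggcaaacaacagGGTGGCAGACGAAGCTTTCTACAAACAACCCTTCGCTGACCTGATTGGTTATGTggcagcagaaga
Clta 36-base exon, chr4:44031400-44031435, plus strand: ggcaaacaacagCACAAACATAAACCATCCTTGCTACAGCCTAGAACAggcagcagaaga
Cltb 54-base exon, chr13:54597026-54597079, minus strand: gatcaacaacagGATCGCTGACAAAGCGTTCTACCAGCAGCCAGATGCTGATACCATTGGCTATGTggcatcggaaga
The 54-base exons of Clta and Cltb code for 18 residues each and are identical at 37 of 54 positions (68.5%), counted without gaps. The 36-base exon of Clta adds 12 residues.

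The 54-base exon of Clta was in 98.2% of its coding TPM in pup 1 and in 58.4% in pup 3. In reads, transcripts with the exon held 4112 of 4182 expected counts in pup 1 and 6345 of 10760 in pup 3. The exon-free form differed more between the pups than the exon-bearing form, with 2.80 TPM in pup 1 and 194 TPM in pup 3 beside 154 and 272 TPM. The 36-base exon was in 13.4% of Clta TPM in pup 1 and 8.03% in pup 3. Transcripts with both exons held 13.4% in pup 1 and 7.77% in pup 3, and the 36-base exon without the 54-base one held 0% and 0.257%. In either pup the shorter exon was thus found almost wholly together with the longer.

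The exon of Cltb went the other way, at 67.2% of coding TPM in pup 1 and 93.0% in pup 3. In Cltb the annotated transcripts with and without the exon also differ in length, 1004 against 2186 bases, so that reads outside the exon bear on the estimate. By expected count its share was 47.0% in pup 1 and 85.3% in pup 3, again lower in pup 1. In Clta the main forms with and without the 54-base exon differ by little else, at 1099 and 1079 bases, and counts gave 98.3% and 59.0%.

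**Figure D2:**
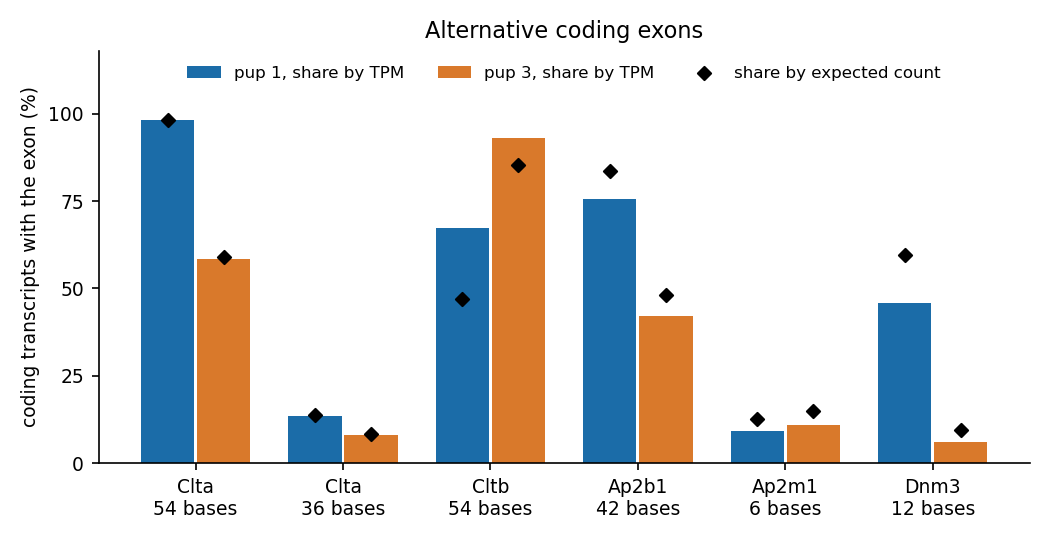
Share (%) of the coding transcripts spanning an alternative exon that hold it, in pup 1 (blue) and pup 3 (orange), by TPM (bars) and by expected count (black diamonds), 1 library per pup. The 54-base exon stands at 98.2% in pup 1 and 58.4% in pup 3 for Clta, but at 67.2% and 93.0% for Cltb; the short exons of Clta and Ap2m1 stay below 15% by either measure.

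AP2 is built of a pair of large subunits, alpha and beta, with a medium subunit mu and a small subunit sigma. The medium subunit gene Ap2m1 (ENSMUSG00000022841, chr16:20535478-20544909, plus strand), whose product reads tyrosine-based sorting signals on cargo, was the most abundant of the 10 genes. It had 1449 TPM in pup 1 and 834 TPM in pup 3, from 75291 and 35657 expected counts, ranked 77 among protein-coding genes by mean level and had a log2 ratio of 0.80. It held 59.0% of the TPM of the 10 genes in pup 1 and 38.7% in pup 3, and without it the other 9 genes summed to 1007 and 1322 TPM, now lower in pup 1. The counts of Ap2m1 are not whole in either pup, so part of its reads were shared out between genes. A processed pseudogene, Gm13509, matches its longest coding transcript at 99.7% identity over 1308 bases and was given 3923 counts in pup 1 and 1816 in pup 3, so the split between them is uncertain. Retained-intron transcripts held 6.43% of Ap2m1 TPM in pup 1 and 14.4% in pup 3, the rest lying almost wholly on complete coding transcripts. The main retained-intron transcript has 752 bases, 700 of them in exons of complete coding transcripts, so the split of reads is uncertain. The small subunit gene Ap2s1 (ENSMUSG00000008036, chr7:16738410-16749294, plus strand) had 378 TPM in pup 1 and 399.7 TPM in pup 3, from 7356 and 6793 expected counts. With a mean of 389 ± 15.4 TPM and a log2 ratio of -0.08, it differed least of the 10 genes between the pups.

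The beta subunit, which binds clathrin, comes from Ap2b1 (ENSMUSG00000035152, chr11:83299024-83405035, plus strand). It had 72.2 TPM in pup 1 and 142.6 TPM in pup 3, from 4930 and 9835 expected counts, a mean of 107 ± 49.8 TPM and a log2 ratio of -0.97, just within 2-fold. A 651-base coding transcript from the start of the gene, 95.4% of it shared with complete coding transcripts, was given 36.1 TPM in pup 1 and 26.2 TPM in pup 3, or 50.02% and 18.4% of the gene. Over complete coding transcripts alone, Ap2b1 had 34.9 TPM in pup 1 and 116.3 TPM in pup 3, a log2 ratio of -1.71 and so past 2-fold.

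The alpha subunit, which binds the membrane lipid PIP2, is encoded by Ap2a1 (ENSMUSG00000060279, chr7:44900373-44929496, minus strand) and by a paralog outside the 10 genes, Ap2a2. Ap2a1 had 0.50 TPM in pup 1 and 9.28 TPM in pup 3, from 38.89 and 287 expected counts, the lowest mean of the 10 at 4.89 ± 6.21 TPM, with a log2 ratio of -2.78. Ap2a2 had 51.7 TPM in pup 1 and 0.38 TPM in pup 3, from 6228 and 40 expected counts, a log2 ratio of 5.25. In these libraries Ap2a2 made up 99.0% of alpha TPM in pup 1 and 3.93% in pup 3. Of protein-coding genes with a mean from 1 to 100 TPM, 78% were 2-fold or more apart between the pups. The alpha genes together summed to 52.2 TPM in pup 1 and 9.66 TPM in pup 3. Ap2b1 thus stood at 1.38 times the alpha genes in pup 1 and 14.8 times in pup 3. For Ap2a1 in pup 1 the deposited TPM lies outside the credibility bounds of 0.764 to 1.97 TPM that go with the deposited posterior mean of 1.32 TPM, and in pup 3 70.7% of its TPM lay on a 597-base transcript not in M21. Fuz, which overlaps Ap2a1 on the opposite strand and matches it over 252 bases, had 27.5 TPM in pup 1 and no read in pup 3. In pup 1 the expected counts of Ap2a1 (38.89) and Fuz (997.11) are not whole, so part of their reads were shared out between genes. Since the strand setting is not given in the sources used here, reads of such overlapping genes cannot be told apart where they overlap.

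Both Ap2b1 and Ap2m1 have short alternative coding exons, shown because the first was a major form and the other a minor one.
Ap2b1 42-base exon, chr11:83364795-83364836, plus strand: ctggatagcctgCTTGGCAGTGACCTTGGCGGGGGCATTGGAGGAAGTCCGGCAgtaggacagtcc
Ap2m1 6-base exon, chr16:20540808-20540813, plus strand: atcaagagtcagCATCAGacgaaggaagaa
The Ap2b1 exon, coding for 14 residues, was in 75.6% of TPM of the coding transcripts that span it in pup 1 and in 42.2% in pup 3, and by expected count in 83.6% and 48.0%. The Ap2m1 exon, coding for 2 residues, was in 9.16% in pup 1 and 10.9% in pup 3, a minor form at nearly the same share in both. The transcripts compared also differ in annotated length, with 2937 bases with the exon against 2080 without it in Ap2m1. In Ap2b1 the form without the exon has 3269 bases. Forms with it include a 5625-base transcript (23.7 TPM in pup 1, 23.1 TPM in pup 3) and a 2742-base transcript (2.67 and 25.7 TPM). Reads outside the exons thus bear on these shares too. An exon of 66 bases in Ap2a1 rested on 37.88 expected counts over coding transcripts in pup 1 and 211.3 in pup 3. It was put at 0% and 100% by TPM but at 45.2% and 84.7% by posterior mean TPM, so its use is not resolved at this depth.

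The dynamin genes were the lowest of the functional groups, summing to 126.4 TPM in pup 1 against 40.9 TPM in pup 3, and each was more than 2-fold higher in pup 1 by TPM. Among protein-coding genes with a mean of 1 TPM or more, 48.3% were that much higher in pup 1, and so were 3 of the 6 neuron markers. The other 3, Gap43, Stmn2 and Syt1, were within 2-fold, with log2 ratios of 0.57, 0.04 and -0.44. Dnm1 (ENSMUSG00000026825, chr2:32308471-32353338, minus strand), the dynamin of nerve terminals, had 36.6 TPM in pup 1 and 17.04 TPM in pup 3, from 1098 and 577 expected counts. Its mean was 26.8 ± 13.9 TPM and its log2 ratio was 1.06. Dnm3 (ENSMUSG00000040265, chr1:161982453-162478034, minus strand), also known from neurons and from postsynaptic sites, had 49.6 TPM in pup 1 and 23.7 TPM in pup 3, from 7506 and 2569 expected counts. Its mean was 36.7 ± 18.3 TPM and its log2 ratio was 1.04, so it was the highest dynamin in both pups.

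Dnm2 (ENSMUSG00000033335, chr9:21424908-21507759, plus strand), the dynamin made in most cell types, had 40.1 TPM in pup 1 and 0.12 TPM in pup 3, a log2 ratio of 5.20. The value in pup 3 rests on 1 read, against 2680 expected counts in pup 1. Scaled to the total expected count of each library, the ratio was 1949, with an exact 95% interval from 350 to 77021 that covers counting error only, since amplified copies of 1 molecule are counted apart. Its deposited TPM in pup 3 is also below the credibility bounds of 0.256 to 1.17 TPM that go with the posterior mean. Tmed1, which overlaps the 3′ end of Dnm2 on the opposite strand, was the reverse, with 0.07 TPM in pup 1 and 108.1 TPM in pup 3. In pup 1 the expected counts of Dnm2 (2680.3) and Tmed1 (2.7) are not whole, so some of their reads were shared out between genes.

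As shares of dynamin TPM, Dnm1 made up 29.0% in pup 1 and 41.7% in pup 3, Dnm2 31.7% and 0.294%, and Dnm3 39.3% and 58.0%. Shares by TPM depend on which transcripts are counted. Of the TPM of Dnm1, 1.80% in pup 1 and 2.41% in pup 3 lay on protein-coding transcripts, at 0.66 and 0.41 TPM. The rest was given mainly to a 1520-base transcript annotated for nonsense-mediated decay, with 15.8 TPM in pup 1 and 16.6 TPM in pup 3, and to an 899-base retained-intron transcript with 19.9 TPM in pup 1 and none in pup 3. All 1520 bases of the first lie in exons of complete coding transcripts, and both transcripts begin and end within chr2:32308497-32320581, the 3′ part of the gene. By these estimates the 2-fold difference in Dnm1 TPM between the pups lay on the retained-intron transcript, while the other transcript was nearly level. Of the 899 bases of the retained-intron transcript, 751 also lie in exons of complete coding transcripts, so the split of reads is uncertain. Ciz1, which overlaps the 5′ end of Dnm1 on the opposite strand, had 8.83 TPM in pup 1 and 145.8 TPM in pup 3. Over complete coding transcripts Dnm3 had 47.5 TPM in pup 1 and 23.7 TPM in pup 3, and Dnm2 had 22.9 and 0 TPM. A further 42.8% of Dnm2 TPM in pup 1 was on retained-intron transcripts of 1772 and 1255 bases. Of these, 1679 and 694 bases lie in exons of complete coding transcripts.

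**Figure D3:**
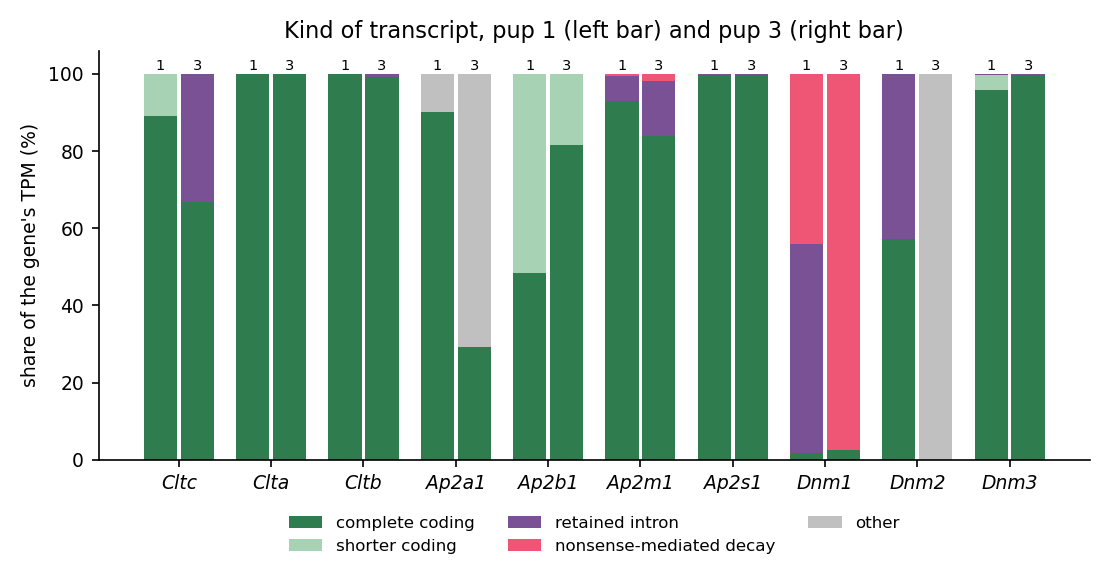
Share (%) of each gene's TPM by annotated kind of transcript in pup 1 (left bar of each pair, marked 1) and pup 3 (right bar, marked 3), 1 library per pup; complete coding means 80% or more of the longest coding length, and other means processed transcripts and transcripts not in M21. Clta, Cltb and Ap2s1 lie almost wholly on complete coding transcripts in both pups, while Dnm1 has 1.80% in pup 1 and 2.41% in pup 3, and the single read of Dnm2 in pup 3 falls on a processed transcript.

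Dnm1 and Dnm2 each have a pair of alternative 139-base middle exons, of which a transcript takes 1. The pair of Dnm2 is shown because nearly all its coding reads in pup 1 took the second, and that of Dnm1 because it is the classical alternative exon of the neuronal dynamin. Here all bases of the exon are in capitals.
Dnm2 first exon of the pair, chr9:21478899-21479037, plus strand: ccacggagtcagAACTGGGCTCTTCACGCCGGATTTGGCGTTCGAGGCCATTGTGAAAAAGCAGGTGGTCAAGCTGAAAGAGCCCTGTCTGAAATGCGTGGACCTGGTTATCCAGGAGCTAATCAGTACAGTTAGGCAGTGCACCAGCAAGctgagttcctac
Dnm2 second exon of the pair, chr9:21480407-21480545, plus strand: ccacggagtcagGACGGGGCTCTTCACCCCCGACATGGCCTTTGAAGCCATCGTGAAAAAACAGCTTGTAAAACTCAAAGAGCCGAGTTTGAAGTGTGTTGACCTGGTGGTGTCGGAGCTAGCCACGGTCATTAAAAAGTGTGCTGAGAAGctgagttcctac
Dnm1 first exon of the pair, chr2:32334682-32334820, minus strand: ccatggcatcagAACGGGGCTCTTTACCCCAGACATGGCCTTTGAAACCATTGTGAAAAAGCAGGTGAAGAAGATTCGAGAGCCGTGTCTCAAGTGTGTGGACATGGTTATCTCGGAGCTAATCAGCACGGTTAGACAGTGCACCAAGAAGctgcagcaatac
Dnm1 second exon of the pair, chr2:32333066-32333204, minus strand: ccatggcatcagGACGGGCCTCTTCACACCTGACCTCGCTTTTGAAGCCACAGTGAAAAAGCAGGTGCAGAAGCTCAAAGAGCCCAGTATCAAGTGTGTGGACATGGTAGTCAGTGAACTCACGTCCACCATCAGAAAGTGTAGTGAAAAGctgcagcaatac
The exons of a pair are identical at 95 of 139 positions in Dnm2 (68.3%) and at 100 of 139 in Dnm1 (71.9%).

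In pup 1 the second exon of Dnm2 held 99.5% of coding TPM (2063 expected counts) and the first 0.523% (9.45 counts), while pup 3 had no read on a coding transcript of Dnm2. For Dnm1 the first exon was put at 81.8% in pup 1 and 0% in pup 3, but on 54.34 and 29.38 expected counts over all coding transcripts. By posterior mean TPM the shares were 81.1% and 66.7%, so exon use in Dnm1 is not resolved at this depth. Dnm3 has a 12-base exon, coding for 4 residues, which is shown because its share was several times higher in pup 1.
Dnm3 12-base exon, chr1:162045386-162045397, minus strand: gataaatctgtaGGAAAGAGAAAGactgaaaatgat
It was in 45.7% of coding TPM in pup 1 and 6.04% in pup 3, and by expected count in 59.5% and 9.60%. As TPM, the form with the exon had 22.6 in pup 1 and 1.43 in pup 3, while forms without it had 26.9 and 22.2. The difference in Dnm3 between the pups was thus mostly that of a single transcript, which bears the exon. That transcript is annotated as 7523 bases and the main one without the exon as 4601. Both begin at chr1:162478034, but the 3′ end of the first lies at 161987302 and that of the other at 161990212. Reads in the longer 3′ end therefore bear on the share, which does not measure use of the exon alone.

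In all, 6 of the 10 genes were 2-fold or more apart between the pups. Cltc, Dnm1, Dnm2 and Dnm3 were higher in pup 1, and Clta and Ap2a1 were lower there. Among 9657 protein-coding genes with a mean of 1 TPM or more, 71.4% were that far apart, 48.3% higher in pup 1 and 23.1% higher in pup 3, so the share among the 10 genes is no larger than in the background. The 6 genes with a mean of 100 TPM or more, a level chosen after the values were seen, included 2 that were 2-fold apart, beside 35.9% of such genes. Of these 6, 1 (Cltc) was higher in pup 1, beside 16.7%, and 1 (Clta) higher in pup 3, beside 19.2%. All 4 below it were 2-fold apart, beside 78% of genes with a mean from 1 to 100 TPM. The 3 dynamins among them were higher in pup 1, beside 54.2%, and Ap2a1 higher in pup 3, beside 23.9%. The median log2 ratio was 0.36 over the 10 genes and 0.82 over the 9657.

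**Figure D4:**
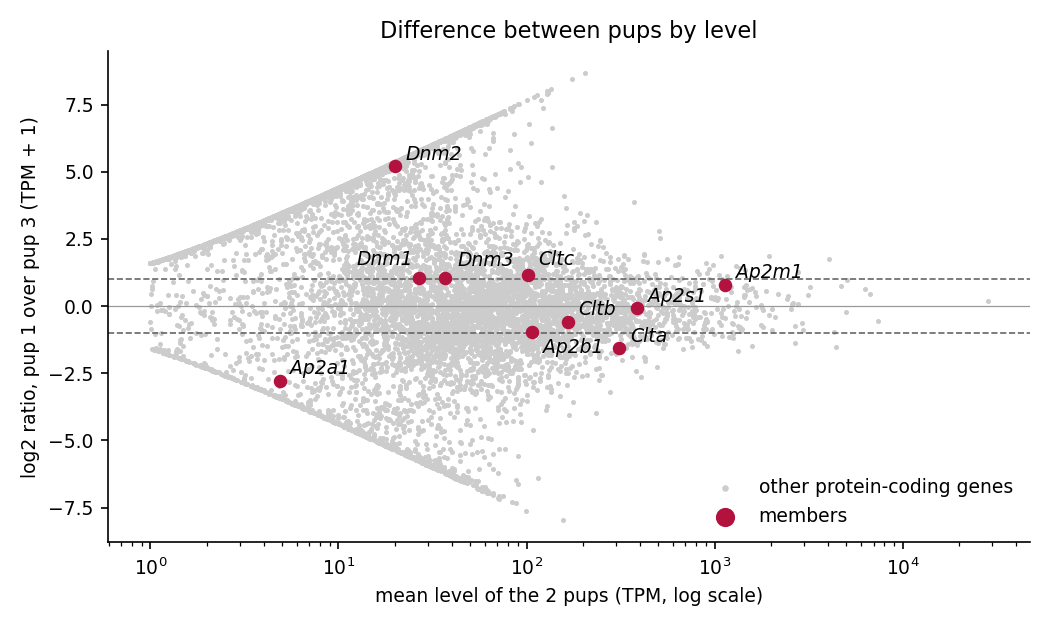
Log2 ratio of pup 1 over pup 3 on TPM + 1 against the mean level of both pups in TPM (log scale), with the 10 genes in red and other protein-coding genes with a mean of 1 TPM or more in grey; dashed lines mark 2-fold. The grey cloud narrows as the level rises, and the 10 genes lie within it, from Ap2a1 at -2.78 to Dnm2 at 5.20.

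Calls of genes near 2-fold turned on the scale. With FPKM, Cltc, Dnm1 and Dnm3 fell within 2-fold, at 0.88, 0.80 and 0.77, and the median of the 9657 genes moved by -0.26. Dnm1 was also within 2-fold in counts scaled by TMM factors (0.65) or DESeq2 size factors (0.67), over complete coding transcripts (0.24) and with a pseudocount of 10 (0.79). Dnm3 was within it without spike-ins and mitochondrial genes, over complete coding transcripts (0.98 in both) and with a pseudocount of 10 (0.82), as was Ap2a1 with that pseudocount (-0.88). Ap2b1 passed 2-fold with FPKM (-1.23), TMM factors (-1.24), DESeq2 size factors (-1.21), without spike-ins and mitochondrial genes (-1.04) and over complete coding transcripts. Clta was 2-fold or more apart under all 9 alternatives, and Dnm2 under the 8 that kept it, since a minimum of 10 expected counts left it out.

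Around these genes stand 85 others of the endocytic and sorting machinery in 6 lists. Both pups had 44 of them (51.8%), pup 1 alone had a further 25, pup 3 alone had 2, and 14 were below 1 TPM in both. Of all 21461 nuclear protein-coding genes, both pups had 24.7%. Of the 9953 such genes at 1 TPM or more in at least 1 pup, both pups had 53.3%. That is 5305 genes in both beside 4648 in a single pup, where the lists had 44 beside 27. The counts of single lists below were not tested against these shares. Of the 85 genes, 69 had a mean of 1 TPM or more. Of these 69, 37 were 2-fold or more higher in pup 1 and 11 higher in pup 3, 69.6% in all beside 71.4% of protein-coding genes. Among other adaptor complexes, which work at the trans-Golgi network and endosomes, 9 of 15 genes were found in both. They were led by Ap1s1, the sigma subunit of AP1, with 361 TPM in pup 1 and 194 TPM in pup 3, by the AP1 mu gene Ap1m1 with 252 and 219 TPM, and by Ap3b2, the neuronal AP3 beta gene, with 121.4 and 87.3 TPM. Their mean levels lay between those of Ap2s1 and Cltc.

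Of 25 endocytic adaptors and pit initiators, 12 were found in both and 9 in pup 1 alone. Necap1, which binds AP2, had 231 TPM in pup 1 and 157 TPM in pup 3, and the early scaffold Eps15 had 64.7 and 54.6 TPM. Snap91, the nerve-terminal adaptor AP180 that assembles clathrin, had 78.9 and 30.1 TPM, higher in pup 1 past 2-fold. Of 16 genes for proteins that bend or sense membrane, 10 were found in both. Fnbp1l had 74.0 TPM in pup 1 and 130.2 TPM in pup 3, with the endophilin gene Sh3gl1 at 31.7 and 134.6 TPM, and Sh3glb2 at 82.8 and 66.1 TPM.

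Of 15 genes for uncoating, phosphoinositide turnover and kinases, 6 were found in both and 6 in pup 1 alone. Hspa8, the chaperone that strips clathrin from vesicles, was above all 10 genes, with 3963 TPM in pup 1 against 2439 TPM in pup 3. The phosphatase gene Inpp5f had 1004 and 282 TPM, and Pip5k1c, whose product makes the PIP2 that AP2 binds, had 46.4 and 0.90 TPM. Of 6 other genes of the dynamin superfamily, 3 were found in both, all of them acting on mitochondria: Dnm1l, needed for their fission, had 66.2 TPM in pup 1 and 96.0 TPM in pup 3, and the fusion genes Mfn2 and Opa1 had 73.7 against 27.6 TPM and 22.3 against 42.4 TPM. Of 8 cargo receptors, 4 were found in both, among them App with 147 TPM in pup 1 and 215 TPM in pup 3, Tfrc, the transferrin receptor, with 26.2 and 60.0 TPM, and Lrp1 with 55.4 and 22.4 TPM.

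**Figure D5:**
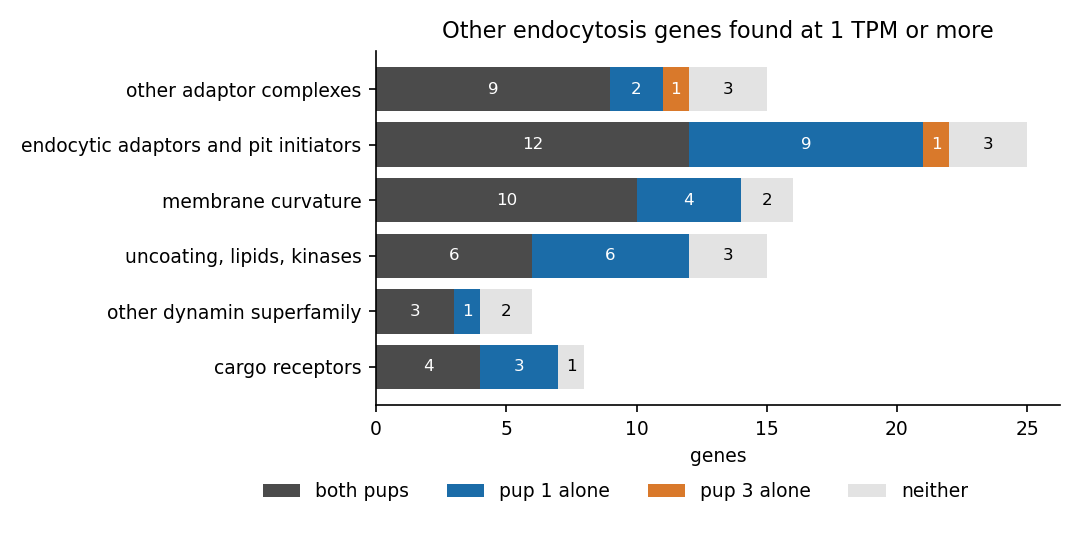
Number of genes of each list at 1 TPM or more, with dark bars for both pups, blue for pup 1 alone, orange for pup 3 alone and light grey for neither, 1 library per pup. Most genes found in a single pup were found in pup 1, the deeper library: 25 against 2 over the 6 lists, beside 3743 against 905 over all protein-coding genes.

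Among annotated genes that overlap 1 of the 10 genes, those with reads lie on the opposite strand, as Fuz, Ciz1 and Tmed1 do. Dnm3os, the RNA transcribed against Dnm3, and the microRNA genes within Dnm1, Dnm2 and Dnm3 (Mir199b, Mir199a-1, Mir199a-2 and Mir214) had no read in either pup, in libraries of RNA longer than 200 nt.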

How the data were processed

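RNA of forebrain tissue was measured, 1 library per pup. The authors deposited expected counts (estimated reads, with reads that match several features shared out), per the file headers, and gave TPM, FPKM and a posterior mean of TPM with its bounds, per gene and per transcript. The deposited FPKM and TPM were scaled per library, per the file headers. The build is mm10 with annotation M4, by a text file that accompanies each library. The sources used here do not name an aligner or its version and do not give a strand setting. Symbols, transcript kinds and exons came from GENCODE M21 (same assembly): 42462 genes matched, and 78 of the 85 transcripts, 70 with the same length. An exon's share was taken over protein-coding transcripts that span it. Copies of the 10 genes were sought with BLAST 2.17.0 at 90% identity over 200 bases.

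The genes named are the 10, the 3 highest of each list, overlapping genes with reads, and transcripts at 5% or more of their gene. Some genes that this rule takes are not reported here. Ap2a2 is a list of its own. The rule for the 10 genes uses no values, but the genes, lists and rules were chosen with earlier results of these data known. The step that counts genes past 2-fold was tested on simulated data with known changes. Alternatives used edgeR 4.0.16 TMM factors (0.919 in pup 1, 1.09 in pup 3) and DESeq2 1.42.0 size factors on rounded expected counts. No test was run between pups.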

Additional observations from a re-analysis of the deposited data

How the results depend on the processing

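No paired analysis was possible because the 2 libraries form 1 group with 1 library each. Of 60 alternative values for counts, sums, medians and shares that used both pups, 49 stayed within the spread between pups (or, for counts, within 1.5 times) and 11 did not. Members 2-fold or more apart numbered 3 with a pseudocount of 10, against 6 as reported. The median log2 ratio of the members, 0.36 as reported, was 0.094 with FPKM, 0.077 over complete coding transcripts (an alternative chosen after seeing the data) and -0.081 over the 9 genes with 10 or more expected counts in each library, where Dnm2, the highest, is left out. The summed member level, 2306 TPM, was 2599.9 TPM when spike-ins and mitochondrial genes were left out of the total. Dnm1's mean dynamin share, 35.3%, was 14.0% by expected count, which does not divide by length, and 1.32% over complete coding transcripts. Dnm3's share, 48.6%, was 74.1% and 82.6% under these. The Ap2m1 6-base exon, 10.04% by TPM, was 13.8% by expected count. Of endocytic adaptors and pit initiators, 7 and not 12 were found in both pups at 5 TPM or more. Values of 1 pup alone lie within the spread of the 2 by construction and say nothing of stability. With each pup alone, members found numbered 9, the summed level was 2156 to 2456 TPM, Clta's share of light chains 54.1 to 70.1%, and dynamin shares 29.0 to 41.7% (Dnm1), 0.294 to 31.7% (Dnm2) and 39.3 to 58.0% (Dnm3). Exon shares by pup were 58.4 to 98.2% and 8.03 to 13.4% (Clta, 54 and 36 bases), 67.2 to 93.0% (Cltb), 42.2 to 75.6% (Ap2b1), 9.16 to 10.9% (Ap2m1), 6.04 to 45.7% (Dnm3) and 0 to 100% (Ap2a1). Of 89 alternative log2 ratios of single genes, 85 stayed within the spread and none of the called ones changed sign. For a log2 ratio, and for their median, that spread was the size of the reported value divided by the square root of 2. A large ratio could hardly leave it, so the 85 say little of stability. With a pseudocount of 10, Dnm2 at 2.31 (5.20 as reported) and Ap2a1 at -0.88 (-2.78 as reported) counted as within it. With 1 library per pup at 13 pg, a low value cannot be told apart from a transcript not captured.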
